A study of Mus musculus with 37 samples.

Results

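Brain cortex of mice carrying both TMEM106B-/- and TDP-43Q331K was compared with wild-type (WT) cortex by RNA sequencing. The comparison uses 10 of the 37 libraries of the series: the 5 cortex libraries of the combined genotype TMEM106B-/-TDP-43Q331K and the 5 WT cortex libraries, taken by the tissue and genotype in their labels. They are called combined 1 to 5 and WT 1 to 5. All mice were 10 months old and no treatment is given. The series also holds 6 TDP-43Q331K and 5 TMEM106B-/- cortex libraries, used beside the main comparison, and 4 liver libraries of each of the 4 genotypes. TDP-43Q331K is described as a knock-in, a change made in the mouse's own gene, and TMEM106B-/- as a deficiency. The labels give neither how the TMEM106B allele was made nor whether mice carried 1 or 2 copies of the TDP-43 change, and they do not say that each library came from a separate animal. The p-values therefore measure only the spread between these samples.

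TMEM106B is a transmembrane protein of late endosomes and lysosomes whose gene is a risk locus for frontotemporal dementia, and TDP-43, encoded by Tardbp, is an RNA-binding protein that aggregates in amyotrophic lateral sclerosis (ALS) and frontotemporal dementia. Oligodendrocytes wrap axons in compact myelin, a stack of membrane rich in cholesterol and galactolipids and held together by a few abundant proteins, myelin basic protein among them. Loss of TMEM106B is known to disturb lysosome transport in oligodendrocytes and myelination. The study asks how gene expression changes with both alterations, and its title names lipid metabolism.

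The microRNA miR-219a is made in oligodendrocytes and promotes their maturation, and reads at its locus were lower in the combined genotype (values below). Its mature 5p arm in RefSeq (GRCm38.p6, chr2:29845689-29845709, minus strand, 21 bases) carries its seed, bases 2 to 8, in capitals:
mmu-miR-219a-5p: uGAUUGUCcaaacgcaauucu

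The promoters of 3 myelin genes that were lower in the combined genotype are shown because they hold ACAAAG, a core of the motif bound by SOX10 and related factors. They were picked for this after the search. Each is the 250 bases before the gene's start in RefSeq (GRCm38.p6), Cnp at chr11:100574689-100574938, plus strand, Mobp at chr9:120149492-120149741, plus strand, and Opalin at chr19:41077114-41077363, minus strand. Capitals mark ACAAAG on the printed strand and its reverse complement CTTTGT on the other:
Cnp: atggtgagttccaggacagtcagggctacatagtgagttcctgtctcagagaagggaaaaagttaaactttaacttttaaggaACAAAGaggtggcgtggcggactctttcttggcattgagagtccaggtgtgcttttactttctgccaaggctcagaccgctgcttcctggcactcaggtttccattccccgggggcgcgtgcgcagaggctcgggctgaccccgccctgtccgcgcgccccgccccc
Mobp: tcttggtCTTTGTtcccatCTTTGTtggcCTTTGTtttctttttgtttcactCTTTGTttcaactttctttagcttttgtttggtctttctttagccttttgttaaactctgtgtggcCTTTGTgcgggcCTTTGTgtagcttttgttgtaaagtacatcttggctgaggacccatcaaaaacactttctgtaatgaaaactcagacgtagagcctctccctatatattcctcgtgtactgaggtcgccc
Opalin: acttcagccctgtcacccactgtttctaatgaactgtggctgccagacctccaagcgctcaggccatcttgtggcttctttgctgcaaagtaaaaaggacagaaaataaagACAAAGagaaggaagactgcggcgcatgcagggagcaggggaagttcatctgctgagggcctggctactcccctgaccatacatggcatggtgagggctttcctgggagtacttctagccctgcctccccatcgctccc

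The Cnp match begins 167 bases and the Opalin match 139 bases before the start, and Mobp holds 6 matches between 243 and 120 bases before it, all on the reverse strand. ACAAAG and ACAATG, which do not overlap each other, were searched on both strands. Of the 25 myelin genes called lower, 18 had promoters in the table, and 14 of their 27 windows (51.9%) held a match, against 8292 of 32851 windows of all promoters (25.2%). For genes with 1 start the shares were 6 of 13 (46.2%) and 5946 of 22862 (26.0%). A match is a description of these letters and not a binding site.

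The 10 libraries held 30 to 38.6 M counts. Values are CPM, counts per 1 M counts of a library scaled by TMM, and differences are log2 fold changes of the combined genotype over WT from edgeR's quasi-likelihood test. Genes with a Benjamini-Hochberg adjusted p under 0.05 over all 21248 tested genes are called, and "rose" and "fell" are used of these. All 10 libraries carried markers of cortical excitatory neurons, Slc17a7 at 943 to 1240.2 CPM and Neurod6 at 66.6 to 116 CPM, and the liver transcript Alb reached at most 1.33 CPM. Mitochondrial transcripts took 3.42 to 3.66% of counts in WT and 3.34 to 5.07% in the combined genotype, and small noncoding RNAs 1.88 to 2.34% and 1.36 to 2.07%.

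The RNA of neither targeted gene differed by this test. Tmem106b (ENSMUSG00000029571, GRCm38 chr6:13069759-13089269, plus strand) was at 189, 183, 183, 192 and 193 CPM in WT 1 to 5 and at 204, 201, 216, 201 and 179 CPM in combined 1 to 5 (log2 fold change 0.09 ± 0.04 SE, adjusted p = 0.231). The groups overlapped, and 4 of the 5 combined libraries lay above the highest WT library. Tmem106b was at 186, 171, 182, 177, 181 and 190.3 CPM in TDP-43Q331K 1 to 6 and at 181, 177, 187, 182 and 194 CPM in TMEM106B-/- 1 to 5. The RNA level thus gives no check of the libraries labelled TMEM106B-/-, since the labels do not describe the allele. Tardbp (ENSMUSG00000041459, GRCm38 chr4:148612382-148627019, minus strand) was at 156, 158, 149.6, 157 and 165 CPM in WT and 150.3, 163, 164, 155 and 158 CPM in the combined genotype (log2 fold change 0.01 ± 0.05 SE, adjusted p = 0.937). The Tardbp values overlapped throughout, and the counts cannot show the altered base.

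In the combined genotype 1038 of 21248 tested genes were called (4.89%), 537 higher (2.53%) and 501 lower (2.36%). Most changes were small. The median log2 fold change was 0.42 among genes that rose and -0.31 among those that fell, with 193 and 140 genes past 1.5-fold and 97 and 40 past 2-fold, against a median of 0.01 over all tested genes. Protein-coding genes made up 449 of those that rose and 422 of those that fell. For 1258 genes (5.92%) all 5 combined libraries lay outside the range of the 5 WT libraries, 628 above (2.96%) and 630 below (2.96%). Leaving out 1 of the 10 libraries gave between 422 calls (without combined 4) and 1535 calls (without combined 5), with 508, 487 and 436 without WT 2, WT 3 and WT 4 and 487 without combined 3. With 1 surrogate variable as covariate 428 genes were called. With scores of deep layer, striatum and meningeal markers as covariates, an alternative chosen after seeing the data, 23 genes were called, 12 higher and 11 lower.

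**Figure D1:**
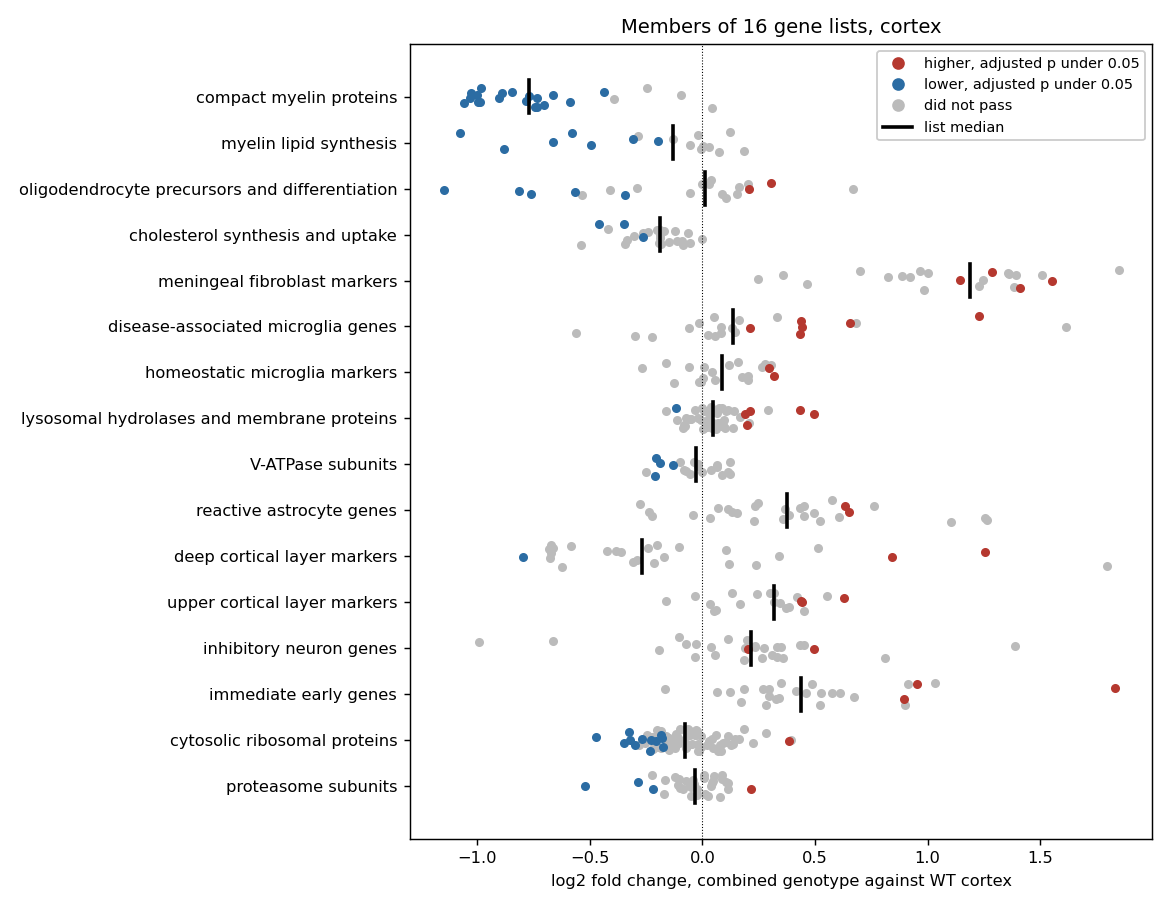
Log2 fold change of the combined genotype over WT (x axis) for every tested member of 16 gene lists (rows, 1 point per gene), with called genes marked apart from the others. Compact myelin proteins lie almost wholly below 0 (median -0.77) and meningeal fibroblast markers above 0 (median 1.19).

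Genes of compact myelin fell together. Of 23 tested members 19 fell and 0 rose, with a median log2 fold change of -0.77, and in 17 of the 23 all 5 combined libraries lay below all 5 WT libraries. Among all tested genes 2.36% fell and 2.96% lay below WT in this way. Mobp, a cytoplasmic myelin protein (ENSMUSG00000032517, GRCm38 chr9:120149707-120181484, plus strand), was at 412, 376, 375, 378 and 383 CPM in WT 1 to 5 and at 200.4, 126, 136, 195 and 313 CPM in combined 1 to 5. Every combined library lay below the WT range, with combined 2 and combined 3 lowest and combined 5 nearest to WT (log2 fold change -0.99 ± 0.21 SE, adjusted p = 0.0166). Its mean was 385 ± 15.8 CPM in WT and 194 ± 74.7 CPM in the combined genotype (SD, n = 5 each). Mbp, myelin basic protein, was at 1580.3, 1339, 1302, 1362 and 1444 CPM in WT and at 781, 515, 543, 751 and 1201 CPM in the combined genotype (log2 fold change -0.89 ± 0.20 SE, adjusted p = 0.018). The order of the combined libraries was much the same, lowest in combined 2 and combined 3. Mal, a raft protein of myelin membrane, was at 102, 95.2, 96.8, 107 and 104 CPM in WT and 50.1, 31.4, 38.3, 50.2 and 77.3 CPM in the combined genotype (log2 fold change -1.03 ± 0.21 SE, adjusted p = 0.0125). Tspan2, a tetraspanin of the oligodendrocyte membrane, was at 81.7, 82.7, 83.7, 87.3 and 92.8 CPM in WT and 54.9, 37.3, 47.6, 51.4 and 65.9 CPM in the combined genotype (log2 fold change -0.73 ± 0.13 SE, adjusted p = 0.00626). For both genes all 5 combined libraries lay below the lowest WT library. RNA was taken from whole tissue, so fewer oligodendrocytes and less of these RNAs per cell cannot be told apart.

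Other members fell by amounts of the same order, and 4 of the 23 were not called. Lower by log2 fold change were Mog (-1.03, adjusted p = 0.0126), an outer myelin glycoprotein, and Ermn (-0.98, adjusted p = 0.0188), a cytoskeletal protein of late oligodendrocytes. So were Cldn11 (-0.78, adjusted p = 0.0126), the claudin of myelin tight junctions, Cnp (-0.77, adjusted p = 0.0158) and Mag (-0.74, adjusted p = 0.0175), the adhesion protein facing the axon. Also lower were Gjc3 (-0.74, adjusted p = 0.00442), a connexin, and Aspa (-0.66, adjusted p = 0.00442), which cleaves N-acetylaspartate. The carbonic anhydrase Car2 (-0.44, adjusted p = 0.0065) fell, and so did Opalin (-1.0, adjusted p = 0.0276), a glycoprotein of the paranodal loops. The calls of Mobp, Mbp, Mal, Mog, Ermn, Cldn11, Cnp, Mag, Gjc3, Tspan2, Aspa and Car2 held in all 10 fits that left out 1 of the compared libraries. The call of Opalin ended in 6 of the 10 leave-out fits (those without WT 2, WT 4, WT 5, combined 2, combined 3 and combined 4), at an adjusted p of up to 0.0702. Over those 10 fits 16 to 20 members were called lower.

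**Figure D2:**
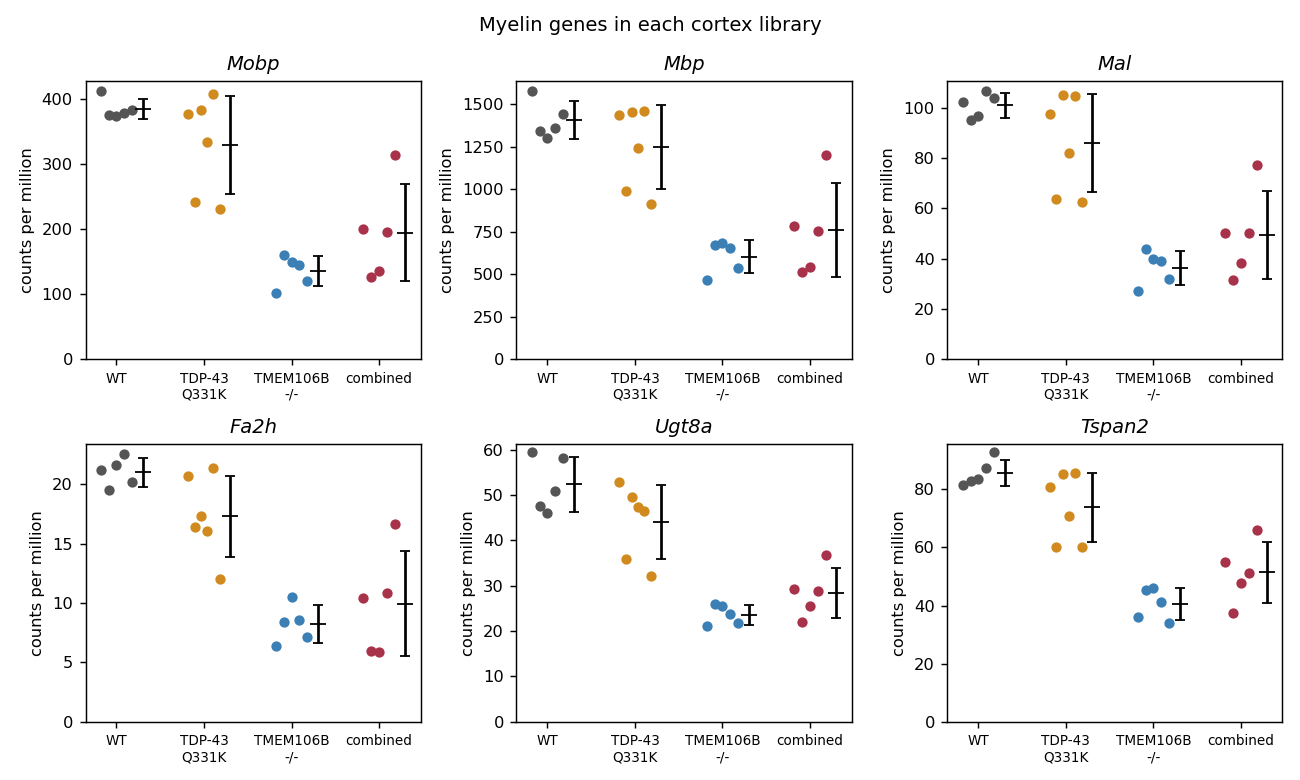
CPM (y axis, from 0) of 6 myelin genes, Mobp, Mbp, Mal, Fa2h, Ugt8a and Tspan2, in each cortex library (points) by genotype (x axis), with the group mean and SD as bar. All 5 combined libraries lie below all 5 WT libraries in each panel, and within the combined genotype combined 5 is the highest.

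Other tissue markers moved in the same libraries. The list score, the mean over members of the log2 CPM difference from the WT mean, was -0.63, -1.15, -1.04, -0.71 and -0.26 for compact myelin in combined 1 to 5 and between -0.06 and 0.05 in WT. The score of meningeal fibroblast markers was 0.99, 1.62, 1.31, 1.18 and 0.67 in combined 1 to 5 and -0.93, 0.35, -0.12, 0.14 and 0.56 in WT 1 to 5. Combined 2, with the lowest myelin score, had the highest meningeal score, and combined 5, nearest to WT in myelin, had a meningeal score of 0.67 against 0.56 in WT 5. Deep cortical layer markers scored -0.47 to 0.04 against -0.09 to 0.07 in WT, and striatum markers -0.77 to -0.30 against -0.47 to 0.44. In the 5 TMEM106B-/- libraries the myelin score ran from -1.21 to -0.84 and the meningeal score from 0.18 to 1.96. With the deep layer, striatum and meningeal scores as covariates the median of the myelin list was -0.57 and 1 of its members, Aspa, was called, and with 1 surrogate variable the median was -0.54 and 6 members were called. Without 4 cortices of extreme markers, WT 1, TDP-43Q331K 3, TMEM106B-/- 5 and combined 2, 14 members were called lower. Beyond these fits the part of the tissue markers in the myelin result was not tested.

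**Figure D3:**
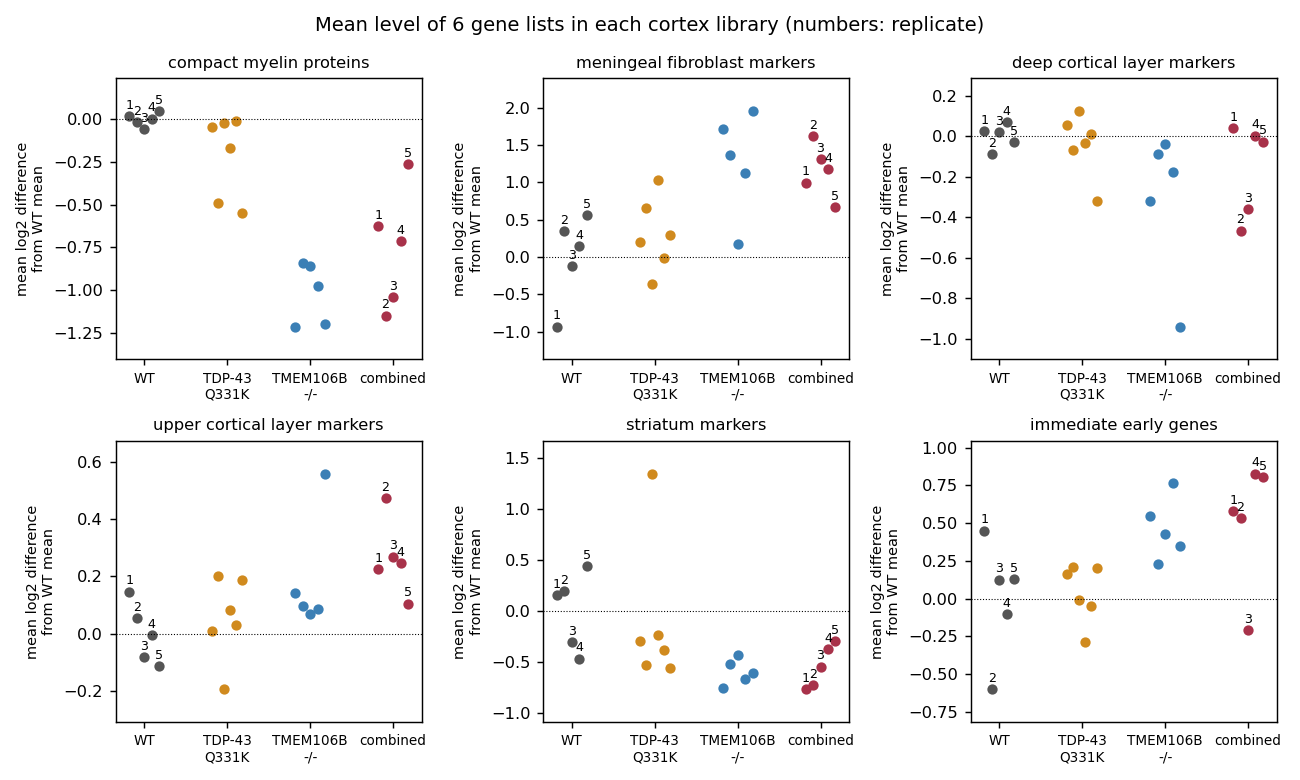
Scores of 6 gene lists (y axis, mean log2 CPM difference from the WT mean) in each cortex library (points, numbered by replicate for WT and the combined genotype) by genotype (x axis). Compact myelin scores of the combined libraries run from -1.15 to -0.26, below every WT library, while their meningeal scores run from 0.67 to 1.62, above every WT library.

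Enzymes that build myelin lipids fell with the myelin proteins, and 0 rose. Of 17 tested members 7 fell, the median was -0.13, and 9 lay below the WT range in all 5 combined libraries. The shares over all tested genes were 2.36% and 2.96%. Ugt8a, which makes galactosylceramide, was at 59.4, 47.6, 46, 50.9 and 58.1 CPM in WT and 29.2, 21.9, 25.5, 28.8 and 36.8 CPM in the combined genotype (log2 fold change -0.88 ± 0.14 SE, adjusted p = 0.00322). Fa2h, the fatty acid hydroxylase for myelin galactolipids, was at 21.2, 19.5, 21.6, 22.6 and 20.2 CPM and 10.4, 5.94, 5.86, 10.8 and 16.7 CPM (log2 fold change -1.08 ± 0.22 SE, adjusted p = 0.0134). Neither gene's groups overlapped, and combined 2 was among the 2 lowest for both. Gal3st1 (-0.58, adjusted p = 0.013), which sulfates galactosylceramide to sulfatide, Elovl7 (-0.49, adjusted p = 0.00442), a fatty acid elongase, and Aspa fell as well. The desaturases Scd1 and Scd2 make oleate. Scd1 was at 226, 227, 207, 222 and 204 CPM in WT and 172, 159, 169, 196 and 182 CPM in the combined genotype (log2 fold change -0.31 ± 0.05 SE, adjusted p = 0.00442), and Scd2 (-0.20, adjusted p = 0.013) fell less. Scd1 levels did not overlap between the groups, although the fold was small. The calls of Ugt8a, Fa2h, Gal3st1, Elovl7, Scd1 and Scd2 held in all 10 leave-out fits. With 1 surrogate variable as covariate 4 of the 7 were called, Ugt8a, Scd1, Elovl7 and Aspa. With the marker scores as covariates 2 were, Aspa and Elovl7, and Ugt8a had an adjusted p of 0.0793.

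Genes of cholesterol synthesis and uptake were slightly lower as a list. Of 25 members 3 fell and 0 rose, and all 25 log2 fold changes lay below 0, at a median of -0.19 and a lowest value of -0.54. Among all tested genes 2.53% rose and 2.36% fell. The list score of the combined libraries, -0.38 to -0.10, lay below that of every WT library, -0.08 to 0.10. The single genotypes were lower too. Over WT the median was -0.23 in TDP-43Q331K (scores -0.36 to -0.13) and -0.18 in TMEM106B-/- (scores -0.38 to -0.08), with 0 and 1 members called lower. Combined over TDP-43Q331K it was 0.04. Over the 10 leave-out fits 1 to 5 members were called lower, 1 without WT 4 and 5 without combined 1 or combined 5. Stard4, which carries cholesterol between membranes in the cytosol, was at 38.8, 38.8, 40.6, 41.4 and 35.6 CPM in WT and 31.4, 30.5, 25.4, 27.4 and 27.2 CPM in the combined genotype (log2 fold change -0.46 ± 0.07 SE, adjusted p = 0.00272), and all 5 combined libraries lay below the lowest WT library. Hmgcs1 (-0.35, adjusted p = 0.019) and Acat2 (-0.26, adjusted p = 0.0392), enzymes of early sterol synthesis, were the others. Of 17 genes of cholesterol efflux and lipoproteins 2 rose, Lcat (0.44, adjusted p = 0.0164), which esterifies cholesterol on lipoproteins, and Cyp46a1 (0.17, adjusted p = 0.04999), the neuronal enzyme that makes 24-hydroxycholesterol, at a list median of 0.10. Of 17 genes of fatty acid synthesis 2 fell, Scd1 and Scd2, at a median of -0.01. The call of Hmgcs1 ended without WT 4 (adjusted p = 0.0541). The calls of Acat2 and Cyp46a1 each ended in 7 to 9 of the 10 leave-out fits, among them those without WT 2, WT 3, WT 4, WT 5, combined 3 and combined 4, at an adjusted p of up to 0.129.

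Genes of the oligodendrocyte lineage were split. Of 20 tested members of precursors and differentiation 5 fell and 2 rose, with a median of 0.01. The share called over all tested genes was 4.89%. Enpp6, a choline phosphodiesterase of newly formed oligodendrocytes, was at 6.87, 6.27, 5.75, 5.61 and 7.66 CPM in WT and 3.62, 1.89, 1.7, 3.11 and 4.15 CPM in the combined genotype (log2 fold change -1.15 ± 0.26 SE, adjusted p = 0.0164), without overlap. Bcas1 (-0.82, adjusted p = 0.0109), which marks early myelinating cells, Olig1 (-0.34, adjusted p = 0.0138), Sox10 (-0.57, adjusted p = 0.0432) and Myrf (-0.76, adjusted p = 0.0454), transcription factors of the lineage, fell, and Ptprz1 (0.20, adjusted p = 0.0145), a receptor phosphatase of precursors, and Tcf7l2 (0.30, adjusted p = 0.049) rose. The precursor receptor Pdgfra had a log2 fold change of 0.10 and was not called (adjusted p = 0.46). The calls of Enpp6, Bcas1 and Olig1 held in all 10 leave-out fits. The call of Ptprz1 ended without combined 3 (adjusted p = 0.0522). The calls of Sox10, Myrf and Tcf7l2 each ended in 8 to 10 of the 10 leave-out fits, among them those without WT 1, WT 2, WT 3, WT 4, combined 1, combined 2, combined 3 and combined 4, at an adjusted p of up to 0.137.

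The locus of miR-219a, whose mature sequence is printed above, had few counts. Mir219a-2 was at 0.949, 1.31, 0.776, 0.784 and 0.772 CPM in WT and at 0.492, 0.21, 0.384, 0.616 and 0.574 CPM in the combined genotype (log2 fold change -1.01 ± 0.26 SE, adjusted p = 0.027). The groups did not overlap, although WT 3 to 5 and combined 4 lay close together. The gene was named after its values were seen. The call of Mir219a-2 ended without WT 2, combined 2 or combined 3 (adjusted p up to 0.0815). Precursor and mature forms cannot be told apart in these counts. Mir219b lies antisense to it, so without the strand setting of the counting its reads cannot be told apart either.

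The single genotypes are given side by side, since these comparisons share libraries. Compact myelin had a median log2 fold change of -0.77 in the combined genotype, -1.11 in TMEM106B-/- and -0.21 in TDP-43Q331K, each over WT, with 19, 21 and 0 of 23 members called lower. In all genes TMEM106B-/- over WT gave 1097 calls (5.16%), 590 higher (2.78%) and 507 lower (2.39%), and TDP-43Q331K over WT gave 0 (0%), with 1036 genes at an unadjusted p under 0.05. Mobp was at 102, 160.5, 149, 144 and 121 CPM in TMEM106B-/- 1 to 5 and at 377, 242, 383, 334, 408 and 232 CPM in TDP-43Q331K 1 to 6. The TMEM106B-/- values overlapped with those of the combined genotype, and TDP-43Q331K 2, 4 and 6 lay below all WT libraries. Against WT, Mobp had a log2 fold change of -1.51 in TMEM106B-/- (adjusted p = 0.000615) and -0.23 in TDP-43Q331K (adjusted p = 1.0).

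Direct comparisons tested what each change added to the other. Against TDP-43Q331K, which shares the knock-in, the combined genotype had 298 called genes (1.40%), 170 higher (0.800%) and 128 lower (0.602%), and 4 of the 23 compact myelin genes were lower at a list median of -0.57. Gjc3 (-0.55, adjusted p = 0.0321) and Tspan2 (-0.52, adjusted p = 0.0464) were lower by this comparison, as was the lipid enzyme Ugt8a (-0.63, adjusted p = 0.0282). Mbp (-0.72, adjusted p = 0.0641) and Mobp (-0.76, adjusted p = 0.0699) were not called. The count of called genes ran from 53 without TDP-43Q331K 1 to 1103 without combined 5. Against TMEM106B-/-, 0 genes were called (0%) by edgeR, DESeq2 or voom, with 1053 at an unadjusted p under 0.05 and a smallest edgeR adjusted p of 0.970. Compact myelin had a median of 0.31 there, and Mobp 0.52 (adjusted p = 0.97). The interaction, the change with TMEM106B-/- on the TDP-43Q331K background minus that on WT, had 0 called genes (0%) by edgeR, with 972 at an unadjusted p under 0.05, a smallest adjusted p of 0.715 and a compact myelin median of 0.52. These tests do not show that the genotypes were alike.

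Markers of the meninges, the membranes over the cortex, were higher. Of 22 tested fibroblast markers 4 rose and 0 fell, with a median log2 fold change of 1.19 and a range of 0.25 to 1.85, and 10 lay above the WT range in all 5 combined libraries. Among all tested genes 2.53% rose and 2.96% lay above WT in this way. The summed level of the list was 164 to 451 CPM in WT and 539 to 1057 CPM in the combined genotype. Ptgds, prostaglandin D synthase of arachnoid and oligodendrocyte cells, was at 100.2, 283, 186, 239.9 and 314 CPM in WT and 583, 776, 703, 538 and 381 CPM in the combined genotype (log2 fold change 1.41 ± 0.34 SE, adjusted p = 0.0279). WT 1 was lowest and combined 5 was the combined library nearest to WT. Crabp2 (1.55, adjusted p = 0.0236), a retinoic acid carrier, and the solute carriers Slc6a20a (1.14, adjusted p = 0.029) and Slc6a13 (1.28, adjusted p = 0.0408) rose too. In TMEM106B-/- over WT 17 members rose, at a median of 1.37. Leaving out 1 of the 10 libraries gave 0 to 12 calls. The calls of Crabp2, Ptgds, Slc6a20a and Slc6a13 each ended in 5 to 8 of the 10 leave-out fits, among them those without WT 3, WT 4, combined 2 and combined 3, at an adjusted p of up to 0.0875. How much meninges stayed on each dissected piece is not recorded, and its part in these results was not tested.

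Some genes known from macrophages of the brain's borders were among those called higher. The 6 given here were picked after their values were seen, so they say nothing of such genes as a group. Mrc1, the mannose receptor, was at 1.98, 3.52, 3.4, 3.26 and 5.41 CPM in WT and 8.42, 9.41, 8.85, 8.76 and 7.33 CPM in the combined genotype (log2 fold change 1.29 ± 0.27 SE, adjusted p = 0.0135). All 5 combined libraries lay above WT 5, the highest WT library. Cd163 (1.14, adjusted p = 0.0111) and F13a1 (1.08, adjusted p = 0.00648) rose and kept their calls in all 10 leave-out fits, and Lyve1 (1.51, adjusted p = 0.0454), Siglec1 (1.09, adjusted p = 0.0309) and Msr1 (1.24, adjusted p = 0.0352) rose. The calls of Lyve1, Siglec1 and Msr1 each ended in 7 of the 10 leave-out fits, among them those without WT 1, WT 2, WT 4, combined 3 and combined 4, at an adjusted p of up to 0.135. The meningeal scores given above moved with these genes, and their part was not tested.

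Vessel, astrocyte and matrix lists scored higher in the combined libraries, with 1 or 2 single genes called in each. Over all tested genes 4.89% were called. The score of endothelial and mural markers was 0.12 to 0.28 in the combined libraries and -0.13 to 0.08 in WT. That of astrocyte markers was 0.10 to 0.27 against -0.06 to 0.06, and that of collagens and matrix genes 0.27 to 0.63 against -0.13 to 0.10. In these 3 lists every combined library lay above every WT library, while reactive astrocyte genes overlapped (0.19 to 0.55 against -0.35 to 0.22). The meningeal scores given above moved with these lists, and their part was not tested. Of 22 endothelial and mural markers 2 rose, Vtn (0.53, adjusted p = 0.00906), vitronectin of pericytes, and Cdh5 (0.44, adjusted p = 0.0296), VE-cadherin, at a median of 0.14. Of 18 astrocyte markers 2 rose, Slc1a3 (0.21, adjusted p = 0.0197), a glutamate transporter, and Gja1 (0.33, adjusted p = 0.034), connexin 43, at a median of 0.14. Of 28 reactive astrocyte genes 2 rose, Cp (0.65, adjusted p = 0.0206), ceruloplasmin, and Osmr (0.63, adjusted p = 0.0135), the oncostatin M receptor, at a median of 0.38. Gfap had a log2 fold change of 0.61 and was not called (adjusted p = 0.18). Of 25 collagens and matrix genes 1 rose, Mmp14 (0.67, adjusted p = 0.0311), at a median of 0.27. Vtn and Osmr kept their calls in all 10 leave-out fits. The call of Cp ended without WT 2, WT 3 or combined 3 (adjusted p up to 0.0597). The calls of Cdh5, Slc1a3, Gja1 and Mmp14 each ended in 5 to 7 of the 10 leave-out fits, among them those without WT 3, WT 4 and combined 4, at an adjusted p of up to 0.0905.

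Genes of the disease-associated state of microglia, a phagocytic and lipid-handling program, rose in part. Of 22 tested members 6 rose and 0 fell, with a median of 0.14, and 8 lay above the WT range in all 5 combined libraries. Among all tested genes 2.53% rose and 2.96% lay above WT in this way. Cd68, a lysosomal glycoprotein of phagocytes, was at 4.34, 4.78, 4.9, 5.07 and 4.73 CPM in WT and 5.76, 6.03, 7.02, 6.98 and 6.44 CPM in the combined genotype (log2 fold change 0.44 ± 0.08 SE, adjusted p = 0.00442). Spp1, the secreted phosphoprotein osteopontin, was at 1.75, 3.04, 2.06, 2.41 and 1.9 CPM in WT and 5.26, 7.16, 5.78, 4.7 and 3.34 CPM in the combined genotype (log2 fold change 1.23 ± 0.25 SE, adjusted p = 0.0112). Neither gene overlapped between the groups. B2m (0.44, adjusted p = 0.00641), the light chain of major histocompatibility complex class I, Igf1 (0.44, adjusted p = 0.0125) and Ctsd, cathepsin D, also rose. Meningeal cells and border macrophages express several of these, Spp1 and Igf1 among them, and the part of those cells was not tested. In each of the 10 leave-out fits 4 to 5 members were called higher and 0 to 2 lower. The 20 homeostatic microglia markers had 2 members that rose, Sall1 (0.29, adjusted p = 0.018) and Tmem119 (0.32, adjusted p = 0.0274), and a median of 0.09. The call of Sall1 ended without WT 2 (adjusted p = 0.0525). The call of Tmem119 ended in 4 of the 10 leave-out fits (those without WT 2, WT 4, combined 3 and combined 4), at an adjusted p of up to 0.0888.

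Lysosomal genes showed no common change. Of 52 tested hydrolases and membrane proteins 5 rose and 1 fell, with a median of 0.05. Beside these and the V-ATPase counts below, 2.53% of all tested genes rose and 2.36% fell. Cd68, Ctsh (0.49, adjusted p = 0.0109), cathepsin H, Man2b1 (0.19, adjusted p = 0.0305), a mannosidase, Ctsa (0.20, adjusted p = 0.0332) and Ctsd (0.21, adjusted p = 0.0444) rose, and Lamp1 (-0.12, adjusted p = 0.0434), a major lysosomal membrane protein, fell. Of 20 subunits of the V-ATPase, the proton pump that acidifies lysosomes and binds TMEM106B, 4 fell and 0 rose, with a median of -0.03. These were Atp6v1g1 (-0.21, adjusted p = 0.0344), Atp6ap2 (-0.19, adjusted p = 0.0366), Atp6v1c1 (-0.20, adjusted p = 0.0428) and Atp6v1h (-0.13, adjusted p = 0.0495). Grn, progranulin, had a log2 fold change of 0.12 and was not called (adjusted p = 0.265), and of the 7 partners of TMEM106B and progranulin listed only Ctsd was called. Cd68 and Ctsh kept their calls in all 10 leave-out fits. Over these fits 2 to 9 lysosomal and 0 to 5 V-ATPase genes were called. The calls of Ctsd, Man2b1, Ctsa, Lamp1, Atp6v1g1, Atp6ap2, Atp6v1c1 and Atp6v1h each ended in 6 to 8 of the 10 leave-out fits, among them those without WT 2, WT 3, combined 3 and combined 4, at an adjusted p of up to 0.14.

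Each neuronal list held some called members. Over all tested genes 4.89% were called, and whether these lists differed from that share was not tested. Of 26 deep layer markers 2 rose and 1 fell, with a median of -0.27. Nr4a2, an orphan nuclear receptor induced by activity and expressed in deep layers, was at 16, 5.63, 8.0, 7.99 and 12.4 CPM in WT and 22.8, 21.4, 14.5, 30.6 and 29.9 CPM in the combined genotype (log2 fold change 1.26 ± 0.25 SE, adjusted p = 0.0116). The groups overlapped, with combined 3 below WT 1. Osr1 (0.84, adjusted p = 0.0385) rose and Cplx3 (-0.80, adjusted p = 0.0299), a complexin of subplate neurons, fell. Of 20 upper layer markers 3 rose, Rasgrf2 (0.44, adjusted p = 0.0133), Stard8 (0.44, adjusted p = 0.0178) and Mdga1 (0.63, adjusted p = 0.0427), at a median of 0.32. Of 28 inhibitory neuron genes 2 rose, Tac2 (0.49, adjusted p = 0.0126), a tachykinin, and Gad2 (0.20, adjusted p = 0.0354), which makes GABA, at a median of 0.22, and of 24 genes of excitatory neurons and synapses 1 rose, Stx1a (0.13, adjusted p = 0.0305), at a median of 0.08. Nr4a2, Rasgrf2 and Tac2 kept their calls in all 10 leave-out fits. The call of Stard8 ended without WT 3 or combined 3 (adjusted p up to 0.0567). The calls of Osr1, Cplx3, Mdga1, Gad2 and Stx1a each ended in 7 to 9 of the 10 leave-out fits, among them those without WT 2, WT 3, WT 4, combined 3 and combined 4, at an adjusted p of up to 0.118.

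Immediate early genes, which neurons induce within minutes of activity, varied between libraries. Of 26 tested members 3 rose, Egr2 (1.83, adjusted p = 0.0246), Fosl2 (0.89, adjusted p = 0.0149) and Sik1 (0.95, adjusted p = 0.0298), at a median of 0.44. Fos was at 28.8, 5.95, 19.6, 14.8 and 25.7 CPM in WT and 46.2, 36.9, 11.1, 50.2 and 49 CPM in the combined genotype (log2 fold change 1.03 ± 0.39 SE, adjusted p = 0.132), and was not called. WT 2 and combined 3 were the low library of their groups, and the groups overlapped. The list score was 0.45, -0.60, 0.13, -0.10 and 0.13 in WT 1 to 5 and 0.58, 0.53, -0.21, 0.83 and 0.81 in combined 1 to 5. The calls of Egr2 and Sik1 each ended in 4 to 6 of the 10 leave-out fits, among them those without WT 3, WT 4, WT 5 and combined 4, at an adjusted p of up to 0.0773. Fosl2 kept its call in all 10 leave-out fits.

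Other neuronal groups had isolated calls, where the share over all tested genes was 4.89%. Of 30 ion channels of excitability 1 rose (Kcnq5, 0.17, adjusted p = 0.0454), of 27 clustered protocadherins 1 rose (Pcdhgb1, 0.21, adjusted p = 0.046), and of 30 neuropeptides and receptors 2 rose, Tac2 and Crhr1 (0.31, adjusted p = 0.0182), the corticotropin-releasing hormone receptor, and 1 fell (Sstr1, -0.29, adjusted p = 0.0454). Of 39 very long neuronal genes, a class TDP-43 binds in long introns, 3 rose, Cntnap2 (0.31, adjusted p = 0.00442), Auts2 (0.34, adjusted p = 0.0306) and Kcnd2 (0.18, adjusted p = 0.0342), at a median of 0.02. Cntnap2 kept its call in all 10 leave-out fits and with the marker scores as covariates. It lies on chromosome 6, which carries Tmem106b and where 7.89% of tested genes were called, against 4.72% elsewhere. A part of TDP-43 binding in these calls was not tested. The call of Crhr1 ended without WT 3 or WT 4 (adjusted p up to 0.0593). The calls of Auts2, Kcnd2, Kcnq5, Pcdhgb1 and Sstr1 each ended in 7 to 9 of the 10 leave-out fits, among them those without WT 2, WT 4, WT 5, combined 3 and combined 4, at an adjusted p of up to 0.144.

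Markers of regions next to cortex were checked, beside the 4.89% called over all tested genes. Of 18 striatum markers 0 were called, at a median of -0.35. Of 17 hippocampus markers 2 rose, Fibcd1 (0.52, adjusted p = 0.0305) and Neurod1 (0.42, adjusted p = 0.0427), and 1 fell, Nrn1 (-0.20, adjusted p = 0.0454), at a median of 0.10. Of 16 markers of thalamus, hypothalamus and olfactory bulb 2 rose, Tcf7l2 and Lef1 (0.35, adjusted p = 0.0304), both partners of beta-catenin, at a median of 0.33. Of 15 choroid plexus and ependymal markers 2 rose, Aqp1 (3.05, adjusted p = 0.013), a water channel, and Kcnj13 (1.60, adjusted p = 0.0439), a potassium channel, at a median of -0.48, so the list as a whole was not higher. Of 8 red blood cell genes 1 fell (Hba-a1, -1.07, adjusted p = 0.0397), at a median of -0.48. Aqp1 kept its call in all 10 leave-out fits. That of Lef1 ended in 7 of them (adjusted p up to 0.0839) and that of Tcf7l2 in all 10 (adjusted p up to 0.137). The calls of Fibcd1, Neurod1, Nrn1, Kcnj13 and Hba-a1 each ended in 6 to 9 of the 10 leave-out fits, among them those without WT 2, WT 3, combined 3 and combined 4, at an adjusted p of up to 0.129.

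Some genes tied to TDP-43 disease and splicing were called lower, by small amounts, where 2.36% of all tested genes fell. Of 23 ALS and frontotemporal dementia genes 3 fell, Matr3 (-0.17, adjusted p = 0.0352), a nuclear matrix protein, Kif5a (-0.21, adjusted p = 0.0389), a kinesin, and Chmp2b (-0.15, adjusted p = 0.0412), of the endosomal sorting machinery, at a median of -0.02. Of 42 hnRNP and SR splicing factors 4 fell and 0 rose, at a median of -0.06. Hnrnpa1, a partner of TDP-43 in splicing, was at 105, 103, 109, 105 and 105 CPM in WT and 77.1, 94, 66.3, 73 and 97.5 CPM in the combined genotype (log2 fold change -0.37 ± 0.08 SE, adjusted p = 0.018). All 5 combined libraries lay below WT, with combined 3 lowest. Hnrnpab (-0.21, adjusted p = 0.0154), Hnrnph2 (-0.17, adjusted p = 0.0314) and Elavl2 (-0.16, adjusted p = 0.0476) fell too. Over the 10 leave-out fits 0 to 3 ALS and frontotemporal dementia genes and 1 to 5 splicing factors were called. Hnrnpab kept its call in all 10 leave-out fits. The call of Hnrnpa1 ended without combined 4 (adjusted p = 0.0529). The calls of Hnrnph2, Elavl2, Matr3, Kif5a and Chmp2b each ended in 5 to 8 of the 10 leave-out fits, among them those without WT 3, WT 4 and combined 4, at an adjusted p of up to 0.104. Hnrnpa1 has many processed copies, so its counts depend on how multiply mapped reads were treated.

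Of 76 tested ribosomal protein genes 12 fell and 1 rose, at a median of -0.08, where 2.36% of all tested genes fell and 2.53% rose. Rps15a was at 79.7, 76, 76.5, 80.8 and 79.4 CPM in WT and 64.6, 70.3, 55.9, 56.8 and 66.7 CPM in the combined genotype (log2 fold change -0.32 ± 0.06 SE, adjusted p = 0.00474), without overlap. Rpl17 (-0.23, adjusted p = 0.0216), Rpl18 (-0.35, adjusted p = 0.0233) and Rps26 (-0.27, adjusted p = 0.0242) fell, and Rplp1 (0.38, adjusted p = 0.0163) rose. These counts turned on single libraries. Over the 10 leave-out fits 1 to 29 members were called lower and 0 to 3 higher. Without WT 5 there were 3 higher and 1 lower, without combined 4 1 of each, without combined 3 1 lower and 0 higher, and without combined 5 29 lower and 1 higher. Rps15a kept its call as lower in all 10. The call of Rplp1 ended without combined 3 (adjusted p = 0.0531) and that of Rpl17 ended without WT 5, combined 3 or combined 4 (adjusted p up to 0.0623). The calls of Rpl18 and Rps26 each ended in 4 to 5 of the 10 leave-out fits, among them those without WT 5, combined 3 and combined 4, at an adjusted p of up to 0.0638. These genes have many processed pseudogenes, and how the authors treated shared reads is not given. The share of small noncoding RNAs, given above, was lower in several combined libraries, and its part was not tested.

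Proteasome, chaperone and stress genes gave small, mixed counts, where 4.89% of all tested genes were called. Of 34 proteasome subunits 3 fell, Psma6 (-0.29, adjusted p = 0.0171), Psmd13 (-0.22, adjusted p = 0.0248) and Psmb5 (-0.52, adjusted p = 0.046), and 1 rose, Psmb2 (0.22, adjusted p = 0.0475), at a median of -0.03. Psmb5, a catalytic subunit, was at 14.8, 14.3, 13.7, 13.6 and 14.2 CPM in WT and 6.97, 8.36, 9.62, 9.34 and 14.8 CPM in the combined genotype. Combined 5 lay at the top of the WT range and the other combined libraries below it. Of 24 chaperone genes under the heat shock factor HSF1 3 fell and 1 rose, at a median of -0.03. Hsp90aa1, the inducible cytosolic HSP90, was at 616, 586, 627, 626 and 618 CPM in WT and 529, 530.4, 514, 527 and 527 CPM in the combined genotype (log2 fold change -0.23 ± 0.04 SE, adjusted p = 0.00272). The change was small but the groups did not overlap. Cryab (-0.53, adjusted p = 0.0273), a small heat shock protein abundant in oligodendrocytes, and Hspd1 (-0.24, adjusted p = 0.0273) fell and Dnajb1 (0.29, adjusted p = 0.0298) rose. Of 31 genes of the ATF4 and endoplasmic reticulum stress response 2 rose, Atf3 (1.79, adjusted p = 0.0274) and Atf4 (0.22, adjusted p = 0.0314), and 1 fell, Psat1 (-0.19, adjusted p = 0.0286), at a median of 0.07. Of the proteasome, chaperone and stress genes named, Hsp90aa1 kept its call in all 10 leave-out fits. The call of Psma6 ended without combined 4 (adjusted p = 0.0521) and that of Psmd13 ended without WT 4, combined 3 or combined 4 (adjusted p up to 0.0687). The calls of Psmb5, Psmb2, Cryab, Hspd1, Dnajb1, Atf3, Atf4 and Psat1 each ended in 4 to 9 of the 10 leave-out fits, among them that without combined 4, at an adjusted p of up to 0.143.

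Some respiratory chain genes were called, where the share over all tested genes was 4.89%. Of 13 mitochondrially encoded genes 2 rose and 0 fell, at a median of 0.19. mt-Nd4l, a subunit of complex I, was at 0.633, 0.961, 1.04, 1.12 and 0.708 CPM in WT and 1.97, 1.86, 2.99, 1.82 and 1.3 CPM in the combined genotype (log2 fold change 1.15 ± 0.21 SE, adjusted p = 0.00483). mt-Atp6 (0.43, adjusted p = 0.0222), a subunit of the ATP synthase, was the other. The call of mt-Atp6 ended without combined 3 (adjusted p = 0.07). Of 50 nuclear genes of the respiratory chain 3 fell and 0 rose, Cox7c (-0.34, adjusted p = 0.016), Uqcrfs1 (-0.19, adjusted p = 0.0392) and Ndufb3 (-0.41, adjusted p = 0.046), at a median of -0.03. mt-Nd4l and Cox7c kept their calls in all 10 leave-out fits. The calls of Uqcrfs1 and Ndufb3 each ended in 7 to 8 of the 10 leave-out fits, among them those without WT 1, WT 2, WT 4, WT 5, combined 3 and combined 4, at an adjusted p of up to 0.118.

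Several lists had 0 called members by edgeR. These were 25 interferon-stimulated genes (median 0.01), 20 NRF2 targets (0.03), 18 clock genes (0.00), 19 glucocorticoid-responsive genes (0.14) and 4 markers of lymphocytes and neutrophils.

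Genes on chromosome 6, which carries Tmem106b, were called more often than others. There 89 of 1128 tested genes were called (7.89%), against 949 of 20120 elsewhere (4.72%). By the gap between each gene and Tmem106b, 4 of 35 genes (11.4%) were called within 5 Mb, with Tmem106b itself among the 35. The share was 4 of 55 (7.27%) from 5 to 10 Mb, 6 of 73 (8.22%) from 10 to 20 Mb and 28 of 175 (16%) from 20 to 40 Mb. It was 7 of 116 (6.03%) from 40 to 60 Mb and 20 of 215 (9.30%) from 60 to 80 Mb. Farther out it was 6 of 86 (6.98%) from 80 to 100 Mb and 14 of 373 (3.75%) beyond 100 Mb. Cav2, a caveolin that takes part in membrane invaginations and the gene with the smallest p of all (ENSMUSG00000000058, GRCm38 chr6:17281185-17289115, plus strand), was at 29.9, 32.8, 29.3, 30 and 35.7 CPM in WT and 19.8, 19.6, 20.1, 19.1 and 17 CPM in the combined genotype (log2 fold change -0.72 ± 0.07 SE, adjusted p = 3.03e-06). All combined libraries lay below WT, and over WT the log2 fold change of Cav2 was 0.00 in TDP-43Q331K and -0.74 in TMEM106B-/- (adjusted p = 1.68e-06). Met, the receptor of hepatocyte growth factor, was at 6.58, 6.3, 6.23, 6.69 and 6.18 CPM in WT and 10, 11.3, 9.59, 9.28 and 8.92 CPM in the combined genotype (log2 fold change 0.62 ± 0.09 SE, adjusted p = 0.00137), again without overlap. Cav1 (0.43, adjusted p = 0.0408) and Gm43533 (0.61, adjusted p = 0.034) were the other called genes within 5 Mb. Cav2 and Met kept their calls in all 10 leave-out fits and with the marker scores as covariates. The calls of Cav1 and Gm43533 each ended in 7 to 8 of the 10 leave-out fits, among them those without WT 2, WT 3, WT 4, combined 1, combined 2, combined 3 and combined 4, at an adjusted p of up to 0.107.

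**Figure D4:**
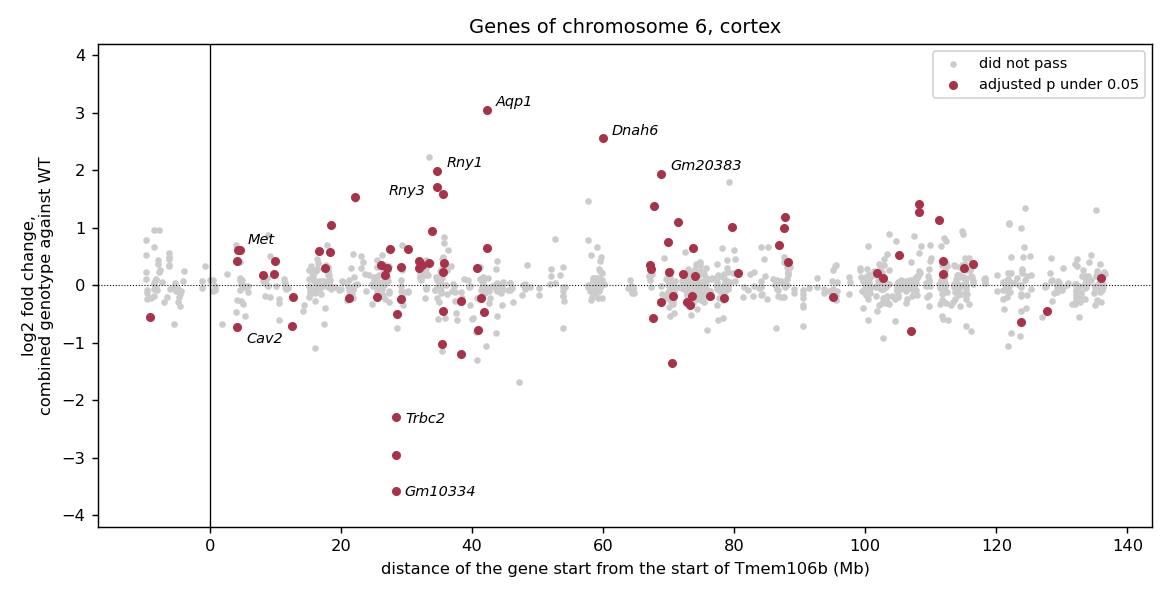
Log2 fold change of the combined genotype over WT (y axis) of tested genes on chromosome 6 against distance from the start of Tmem106b in Mb (x axis), with called genes marked. Called genes run along the whole chromosome, most densely at a gap of 20 to 40 Mb from Tmem106b, where 28 of 175 were called.

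Farther along the chromosome some changes were large. Trbc2, a constant segment of the T cell receptor beta locus, was at 9.86, 10.5, 11, 11.3 and 10.1 CPM in WT and 2.17, 0.66, 1.37, 1.2 and 5.14 CPM in the combined genotype (log2 fold change -2.30 ± 0.32 SE, adjusted p = 0.00255). Gm10334, a trypsinogen-like gene in that locus, was at 1.24, 1.36, 1.04, 1.3 and 1.35 CPM in WT and 0, 0, 0, 0 and 0.469 CPM in the combined genotype (adjusted p = 0.00442), with combined 5 the only combined library above 0. In both genes combined 5 was the combined library nearest to WT. Rny1, a small Y RNA bound by the Ro60 protein, was at 129.8, 130.1, 122, 112 and 81.7 CPM in WT and 261, 479.7, 493, 324 and 739.8 CPM in the combined genotype (log2 fold change 2.0 ± 0.31 SE, adjusted p = 0.00402), and Rny3, named after its values were seen, rose by 1.71 (adjusted p = 0.0102). Dnah6, an axonemal dynein heavy chain, was at 2.07, 3.76, 13.3, 3.02 and 2.61 CPM in WT and 31.4, 33.4, 29.2, 27 and 26.7 CPM in the combined genotype (log2 fold change 2.56 ± 0.46 SE, adjusted p = 0.00708). Gm20383, a long noncoding RNA, was at 0.345, 0.534, 1.6, 0.663 and 0.515 CPM and 3.04, 2.64, 2.82, 3.11 and 2.63 CPM (log2 fold change 1.94 ± 0.24 SE, adjusted p = 0.000393). In both, the combined libraries lay above WT and WT 3 was the highest WT library. All of these kept their calls in the 10 leave-out fits. Gm10334 belongs to a family of near-identical trypsinogen genes, so its reads are uncertain.

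Near Tardbp on chromosome 4, Tnfrsf8 (0.85, adjusted p = 0.00938), a tumour necrosis factor receptor, Disp3 (0.43, adjusted p = 0.0102), Ajap1 (0.22, adjusted p = 0.0171), Dhrs3 (0.35, adjusted p = 0.0206), a retinal reductase, and Rnf207 (0.43, adjusted p = 0.04) were called within 5 Mb. They were 5 of 100 tested genes in that window (5%), near the 4.89% of all genes. On all of chromosome 4 54 of 1184 genes were called (4.56%). Tnfrsf8 and Disp3 kept their calls in all 10 leave-out fits. The call of Ajap1 ended without WT 4 (adjusted p = 0.0525). The calls of Dhrs3 and Rnf207 each ended in 4 to 9 of the 10 leave-out fits, among them those without WT 3, WT 4, combined 3 and combined 4, at an adjusted p of up to 0.103.

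The genes that rose with the smallest p-values had varied roles. Pm20d1, an enzyme that joins fatty acids to amino acids, was at 1.44, 1.71, 1.58, 2.11 and 1.83 CPM in WT and 3.88, 4.11, 3.92, 3.18 and 4.82 CPM in the combined genotype (log2 fold change 1.20 ± 0.15 SE, adjusted p = 0.000393), without overlap. Next to Met and Gm20383 came F2rl2 (0.70, adjusted p = 0.00255), a thrombin receptor, Cpne6 (0.43, adjusted p = 0.00319), a calcium-dependent membrane-binding protein of neurons, and Chil1 (0.74, adjusted p = 0.00322), a chitinase-like glycoprotein secreted by astrocytes. Also among them were Rnase4 (0.83, adjusted p = 0.00322), a secreted ribonuclease, and Sphk1 (1.28, adjusted p = 0.00322), which makes sphingosine 1-phosphate. The list went on with Tril (0.30, adjusted p = 0.00322), Angptl4 (1.39, adjusted p = 0.00402), a secreted inhibitor of lipoprotein lipase, Lin7a (0.34, adjusted p = 0.00402), a synaptic scaffold, Cited2 (0.42, adjusted p = 0.00442), a transcriptional coregulator, and Nrsn1 (0.27, adjusted p = 0.00442). The calls of Pm20d1, F2rl2, Cpne6, Chil1, Rnase4, Sphk1, Tril, Angptl4, Lin7a, Cited2 and Nrsn1 held in all 10 leave-out fits.

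Among genes that fell, the smallest p-values beyond Cav2 included metabolic and transport genes. Qdpr, which regenerates tetrahydrobiopterin, was at 77.3, 77.3, 71.6, 77.3 and 83.5 CPM in WT and 52.9, 46.6, 35.9, 44.9 and 59.8 CPM in the combined genotype (log2 fold change -0.69 ± 0.10 SE, adjusted p = 0.00242). All combined libraries lay below WT, with combined 3 lowest. Slc44a1 (-0.27, adjusted p = 0.00255), a choline transporter, Abca8a (-0.83, adjusted p = 0.00272), a lipid transporter, Bri3 (-0.59, adjusted p = 0.00322), Rcbtb1 (-0.35, adjusted p = 0.00322) and Kif13a (-0.38, adjusted p = 0.00322), a kinesin, fell. So did Slc6a15 (-0.33, adjusted p = 0.00322), an amino acid transporter, Serpini1 (-0.24, adjusted p = 0.00402), the protease inhibitor neuroserpin, Sypl (-0.33, adjusted p = 0.0041) and Glrx2 (-0.35, adjusted p = 0.00442), a glutaredoxin. These 9 genes kept their calls in all 10 leave-out fits. Mcm6, a subunit of the replicative helicase, was at 3.82, 3.68, 4.71, 4.55 and 4.12 CPM in WT and 1.82, 0.6, 1.92, 2.56 and 0.86 CPM in the combined genotype (log2 fold change -1.44 ± 0.29 SE, adjusted p = 0.0102). Its call held in each leave-out fit, and the groups did not overlap. Nfe2l3 (-1.20, adjusted p = 0.0188), a transcription factor, fell too.

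The 3 largest fold changes among called genes were those of processed pseudogenes and rested on 1 to 3 libraries. Glns-ps1, a glutamine synthetase pseudogene, was at 0.115, 0.0534, 0.134, 0.0603 and 0.161 CPM in WT and 11, 11.9, 0.164, 0.0973 and 9.49 CPM in the combined genotype (log2 fold change 5.93 ± 1.40 SE, adjusted p = 0.0249). Combined 1, 2 and 5 were high, and combined 3 and 4 lay near WT. AC134576.3 had the same split, at 0.115, 0.16, 0.0802, 0.151 and 0.129 CPM in WT and 8.24, 7.37, 0.192, 0.162 and 7.4 CPM in the combined genotype (log2 fold change 5.17 ± 1.28 SE, adjusted p = 0.0298). Gm13394 was at 0.518, 0.267, 80, 0.241 and 0.322 CPM in WT and 0.145, 0.36, 0.164, 0.13 and 0.6 CPM in the combined genotype, and its call as lower rested on WT 3 alone, since without it the log2 fold change was -0.25 (adjusted p = 0.807). The call of Glns-ps1 ended without WT 2, WT 3 or WT 4 (adjusted p up to 0.0606). The calls of AC134576.3 and Gm13394 each ended in 5 to 6 of the 10 leave-out fits, among them those without WT 3 and combined 1, at an adjusted p of up to 0.807. Near-identical copies share reads with such pseudogenes, so these values are uncertain. The next largest was that of AC115117.1, also a processed pseudogene, at 4.71, which kept its call in all 10 leave-out fits at a mean of 0.0125 CPM in WT and 0.396 CPM in the combined genotype. Among coding genes Shisa3 (3.06, adjusted p = 0.0444) rose, as did Aqp1, given above, and Tnni1 (-1.09, adjusted p = 0.0464) fell. The calls of Shisa3 and Tnni1 each ended in 8 of the 10 leave-out fits, among them those without WT 1, WT 2, WT 3, WT 4, WT 5, combined 1 and combined 2, at an adjusted p of up to 0.123. Of 185 tested small nucleolar RNAs 13 rose and 1 fell (7.57% called, against 4.89% of all genes). Of 242 microRNA genes 5 fell (2.07%), a share below that of all genes.

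Liver of the same genotypes gave a second tissue. There 1176 of 16710 tested genes were called in the combined genotype over WT (7.04%), and 64 genes were called in both tissues, 6.17% of the cortex calls and 5.44% of the liver calls. Of the cortex calls tested in liver, 8.01% were called there, against 6.32% of all 14635 genes tested in both. In 37 of the 64 the direction was the same, 26 higher and 11 lower, and in 27 it was opposite. Scd1 fell in cortex (-0.31) and rose in liver (1.81, adjusted p = 0.000697), as did Hmgcs1 (-0.35 and 1.64), Taldo1, of the pentose phosphate pathway (-0.25 and 0.46), Tmem98 (-0.71 and 0.86), the ephrin receptor Ephb6 (-0.50 and 2.15) and Slc44a1 (-0.27 and 0.61). AC115117.1 rose in both (4.71 and 6.40), and so did the vitamin B12 carrier Tcn2 (0.41 and 0.75). Porcn (0.24 and -0.66) and Lama3 (0.31 and -1.44) rose in cortex and fell in liver. The call of Hmgcs1 ended without WT 4 (adjusted p = 0.0541). The calls of Lama3 and Tcn2 each ended in 4 of the 10 leave-out fits, among them that without combined 4, at an adjusted p of up to 0.0747, all in cortex. Over fits that left out 1 cortex or liver library 28 to 99 genes were called in both tissues.

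**Figure D5:**
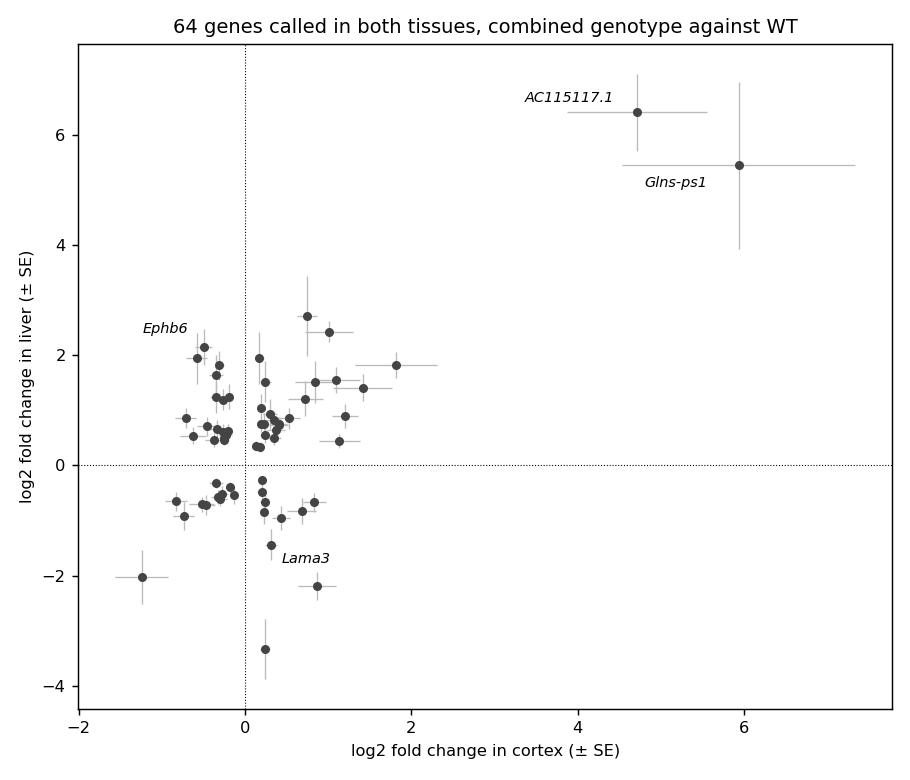
Log2 fold change of the combined genotype over WT in liver (y axis) against cortex (x axis) for the 64 genes called in both tissues (points), with SE as bars. 37 genes lie in the quadrants of the same direction and 27 in those of opposite direction.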

How the data were processed

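Per the labels, total RNA was extracted with Trizol and libraries were made from 700 ng with a directional kit. The values are counts deposited by the authors, raw whole-number counts for 55536 genes, not normalized, which all matched GENCODE M21. Per the submitters' processing notes, Trim Galore, cutadapt and FastQC were used, with GRCm38/mm10. Aligner, counter and strand setting were not given in the sources used here. Among the cortex columns 1 matched no sample and was left out.

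The 21 cortex libraries (28.8 to 46.3 M counts) were fitted as 4 groups in R 4.3.3 with edgeR 4.0.16: filterByExpr (minimum count 10, minimum total 15), TMM (factors 0.970 to 1.04), robust quasi-likelihood test, two-sided, 17 residual degrees of freedom, adjusted p under 0.05 over 21248 genes. The 16 liver libraries were fitted alike. The pipeline was tested on simulated data. Gene-wise chi-square showed that no pair of replicates agreed within counting noise (3.86 to 29.3 per gene, where 1 is noise).

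The comparison and 43 gene lists (1102 names, 2 of them outside the annotation) were chosen with earlier results of these data known, as was the rule for named genes. The rule took both targeted genes, per direction the 15 calls of smallest p and the 8 of largest fold (mean of at least 1 CPM), up to 5 called members per list, 12 genes called in both tissues and called genes within 5 Mb of either target. A few of these genes are not named, and genes outside the rule are Mbp, Mobp, Mog, Mag, Mal, Cnp, Cldn11, Opalin, Ermn, Fa2h, Gal3st1, Myrf, Pdgfra, Gfap, Fos, Grn and those marked as such, chosen after their values were seen. Alternatives were DESeq2 1.42.0, limma-voom (limma 3.58.1), RLE factors, no filter, fitting only the groups compared, a replicate block, 1 surrogate variable (sva 3.50.0), each library left out, and, chosen after seeing the data, 4 cortices with extreme markers left out and marker scores as covariates. A few results are not reported here.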

Additional observations from a re-analysis of the deposited data

Results flagged for a closer look

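In 84 groups of 5 libraries, 8 (9.52%) had a library whose gap to its nearest neighbour exceeded Dixon's 95% critical value of 0.71 as a share of the range. For independent, normally distributed values this rule flags about 1 in 20 groups. The genes and lists were chosen from these data and the groups share libraries, so that rate is not the chance rate here. WT 3 was the highest WT library for Gm13394 (share 0.997, 0.518, 0.267, 80, 0.241 and 0.322 CPM in WT 1 to 5), Dnah6 (0.849, 2.07, 3.76, 13.3, 3.02 and 2.61 CPM) and Gm20383 (0.747, 0.345, 0.534, 1.6, 0.663 and 0.515 CPM), the last a pair of chromosome 6 genes that rose in the combined genotype. WT 1 was highest for Mobp (0.781, 412, 376, 375, 378 and 383 CPM), and WT 2 was lowest for Hsp90aa1 (0.747, 616, 586, 627, 626 and 618 CPM). Combined 3 was lowest for Hsp90aa1 (0.773, 529, 530.4, 514, 527 and 527 CPM in combined 1 to 5) and for the score of immediate early genes (0.717, score -0.21 against 0.53 to 0.83). Combined 5 was highest for Gm10334 (1, 0, 0, 0, 0 and 0.469 CPM).

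Of 12 genes called in both tissues and named, 5 had every combined library outside the WT range in both tissues, in opposite directions in cortex and liver. The 12 were picked for small p-values in both tissues, which favours such gaps, so the count is only a description. In cortex 5.92% of all tested genes had such a gap, and the share in liver was not counted. The difference between the tissues was not tested. Scd1 had a log2 fold change of -0.31 in cortex and 1.81 in liver, Taldo1 -0.25 and 0.46, Tmem98 -0.71 and 0.86, Porcn 0.24 and -0.66, and Slc44a1 -0.27 and 0.61.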

How the results depend on the processing

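The count of 1038 genes over WT was within 1.5 times under RLE factors (1017), no filter on low counts (700), only the compared groups (737), the replicate block (695) and without the 4 extreme cortices (1098). It was 1610 with DESeq2, 1818 with voom, 428 with 1 surrogate variable, 23 with marker scores, and 422 to 1535 with 1 library left out. Over TDP-43Q331K the 298 calls became 830 with DESeq2, 781 with voom, 171 without filter, 104 with only the compared groups, 120 with the replicate block, 175 with 1 surrogate variable, 131 without the extreme cortices, 9 with marker scores and 53 to 1103 with 1 library left out. Over TMEM106B-/- 0 genes were called in each of these fits, and the interaction had 0 to 1 with 1 library left out and 2 without the extreme cortices.

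Called compact myelin genes, 19 as reported, were 6 with 1 surrogate variable, 1 with marker scores and 16 to 20 with 1 library left out. Myelin lipid genes, 7, were 4 with 1 surrogate variable, 2 with marker scores and 7 to 9 with 1 library left out. Meningeal markers, 4, were 17 with DESeq2, 9 with voom, 1 without filter, 7 with only the compared groups, 0 with 1 surrogate variable, 0 without the extreme cortices and 0 to 14 with 1 library left out. With marker scores 0 were called, but those scores include the mean of this same list, so that fit cannot test it. Genes called in both tissues, 64, were 166 with DESeq2, 179 with voom, 35 without filter, 34 with only the compared groups, 37 with the replicate block and 28 to 99 with 1 library left out. The cause of these differences was not tested.

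The sign turned for Tardbp, near 0 throughout, with voom (-0.00187), 1 surrogate variable (-0.057), without the extreme cortices (-0.0102) and with marker scores (-0.0377), and it ran from -0.0145 to 0.0267 with 1 library left out. Pdgfra turned with marker scores (-0.0115). Replicate numbers gave no sign of pairing between WT and combined libraries. Same-numbered libraries correlated at -0.135 to 0.065, and 1 of 5 combined libraries correlated best with its own number. The single genotypes were not part of this check, and shared litters or batches were not tested. At this depth the spread between libraries, with a common biological coefficient of variation of 0.103, limits precision.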

Other observations

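Of the 23 genes called with the marker scores as covariates, Cav2, Met, Rny1, Gm20383 and Cntnap2 have values above, as do Pm20d1, Slc44a1, Bri3, Sypl, Abca8a, Elovl7 and Aspa. Among the members of the gene lists only Aspa, Elovl7 and Cntnap2 were in this set. Members of the deep layer, striatum and meningeal lists were adjusted for the mean of their own list, so their absence shows nothing.

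Glns-ps1 was high in combined 1, 2 and 5, and its values in the other genotypes were 20.2, 23, 10.6, 20.5 and 0.195 CPM in TMEM106B-/- 1 to 5 and 0.21, 0.26, 0.0865, 0.308, 0.0804 and 0.111 CPM in TDP-43Q331K 1 to 6. AC134576.3 was at 15.5, 14.2, 7.32, 17.8 and 0.108 CPM and 0.0901, 0.0521, 0.202, 0.0308, 0.188 and 0.0278 CPM in the same libraries. Dnah6 was at 27.7, 28.4, 27.8, 32.4 and 18.4 CPM in TMEM106B-/- and 3.85, 1.38, 8.48, 5.3, 3.16 and 1.45 CPM in TDP-43Q331K, and Trbc2 at 1.12, 1.65, 2.0, 2.23 and 2.1 CPM and 9.58, 8.52, 10.6, 7.99, 10.9 and 8.54 CPM. For Dnah6 and Trbc2 the TMEM106B-/- libraries lay near the combined libraries and the TDP-43Q331K libraries near WT.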
